A study of Glycine max with 36 samples.

Results

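Atrazine and bentazon were set against each other directly, on one array per biological replicate, in soybean leaves sampled 2 h after spraying. The comparison consists of the 3 arrays of the series on which RNA of atrazine-sprayed leaves (labelled Cy3) met RNA of bentazon-sprayed leaves (labelled Cy5) at 2 h, out of 36 two-colour cDNA arrays in all. The plants were soybean (Glycine max) of the cultivar Williams 82, about 2 weeks old at the V1 stage, grown in a greenhouse at 25 C with 16 h of light. Both groups were misted with a herbicide at 22 to 25 mM, and the 3 leaflets of the first trifoliate leaf were pooled for RNA. The series also holds water-sprayed leaves and sampling at 1, 4 and 8 h, joined in a loop of 12 hybridisation types with 3 replicates each. The labels give an adjuvant (Herbimax, 1% by volume) for water alone and one dose range for the 2 herbicides. Dose, adjuvant and herbicide therefore cannot be told apart.

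Atrazine and bentazon both block photosynthetic electron transport by displacing plastoquinone from its binding site on the D1 protein of photosystem II. Bentazon is used selectively in soybean, whereas atrazine is a maize herbicide that injures soybean. Plants inactivate such compounds by oxidation (cytochromes P450), by conjugation to glutathione (glutathione transferases) or glucose (glycosyltransferases), and by export of compounds or conjugates through ABC transporters. Closed electron transport also leads to reactive oxygen species in the chloroplast, which antioxidant enzymes remove.

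Each value is the deposited log ratio of a probe, taken as log2. Which of the dyes is the numerator is not given in the sources used here, so results are stated by side: the negative side, where the probe named PDR12 lies, and the positive side. A probe on one side has unequal transcript levels in the 2 herbicides, but which herbicide has more is not settled. In these leaf RNA samples, fewer cells of a type and less RNA per cell cannot be told apart. The ratios hold no absolute level, so the leaf identity of the RNA could not be checked against markers.

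The atrazine and bentazon leaves differed at a large number of probes, and the differences were larger on the negative side. Of the 19200 probes, 18094 were measured on 2 or 3 of the arrays and tested with limma. At an adjusted p (Benjamini-Hochberg) of 0.05 or less 1572 were called, which is 8.69% of those tested. On the negative side lay 914 called probes (5.05% of all tested), with a median size of 1.16, and on the positive side 658 (3.64%), with a median size of 0.885. A size of at least 1 was reached by 576 called probes on the negative side and 222 on the positive side (798 in all, 4.41% of those tested). Among called probes, 132 on the negative side and 5 on the positive side had a size of at least 2, and 48 against 0 a size of at least 3. The median over all tested probes was 0.044, and the means ran from -5.84 to 2.34. The sign was the same on every measured array for 1564 of the called probes, and for 44.5% of all tested probes. A call on the mean already favours such agreement, so it is no separate support.

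The number of calls fell most when replicate 1 was left out. It was 436 of 17325 tested probes without replicate 1, 782 of 17549 without replicate 2 and 1314 of 17572 without replicate 3. The negative share of calls, 58.1% with all arrays, was 76.6%, 63.4% and 65.1% in turn. Each setting dropped that replicate number from all 12 hybridisation types, so the shared estimate of spread changed too. A lost call therefore does not point to the 2 h array alone. The arrays held 18347, 17757 and 17722 values, with medians of 0.046, 0.045 and 0.031. Across tested probes, which are not independent, pairs of arrays correlated at 0.505 (replicates 1 and 2), 0.623 (1 and 3) and 0.441 (2 and 3). Only 1120 of the tested probes (6.19%) carry a single gene annotation, and for 823 of them that annotation includes a descriptive symbol and not a locus number alone. Of those 823, 93 (11.3%) were called, 46 negative and 47 positive. The genes described below are therefore a small named part of the response. The gene lists below are drawn from annotated probes, so their shares are to be read against 11.3% as well as 8.69%. Each gene is given by its probe with the largest difference, and other probes of the same gene can differ from it.

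**Figure D1:**
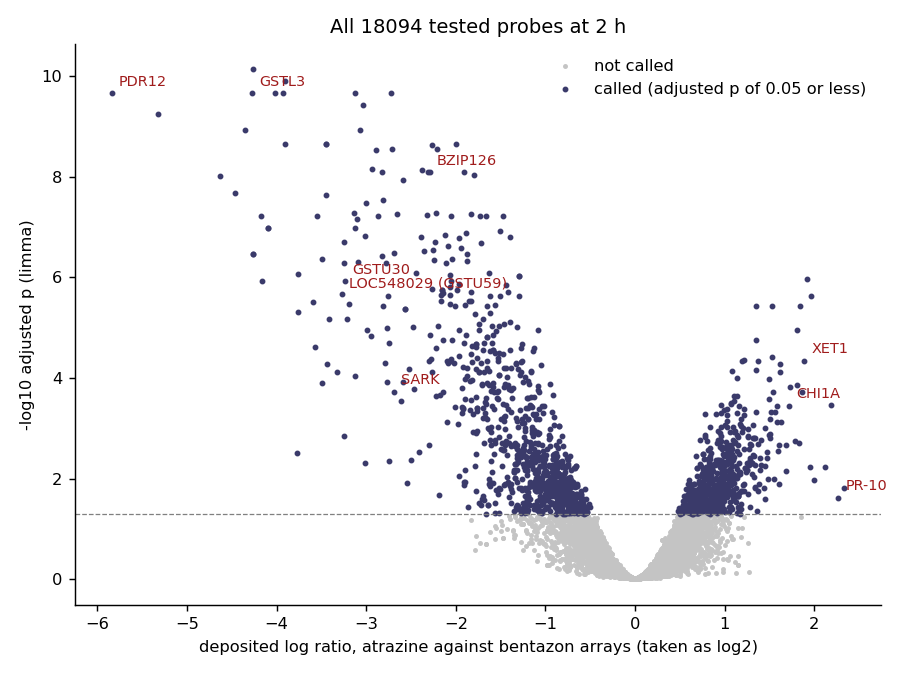
Mean deposited log ratio over the atrazine against bentazon arrays at 2 h (x axis, taken as log2) against -log10 of the limma adjusted p (y axis), with 1 point for each of 18094 tested probes. The 1572 called probes lie above the dashed line, and the negative arm reaches -5.84 at PDR12 while the positive arm ends at 2.34.

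PDR12, a transporter in the pleiotropic drug resistance branch of the ABC proteins, which pump compounds out of cells, had the largest difference of all tested probes. Its log ratios (probe Gm06470cDNA18kA) were -6.42, -5.55 and -5.55 in replicates 1, 2 and 3. All 3 arrays lay far from 0 and close to one another. The mean was -5.84 with a standard error (SE) of 0.45 (n = 3, limma adjusted p = 2.19e-10), a 57.3-fold difference if the values are log2. It is the only gene among the ABC transporters of the annotation used here.

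Glutathione transferases, many of which join glutathione to electrophilic compounds, came next to PDR12 among the named probes of the negative side, with unnamed probes in between. Of 29 tested probes for these genes, 6 were called negative, 1 positive and 22 were not called, so 24.1% were called against 8.69% of all probes. The median of the 29 probes was -0.35, against 0.044 for all probes. The 6 negative probes belong to GSTL3, LOC548029 (GSTU59), GSTU30, GSTF5 (2 probes) and GSTU13. The count of negative calls was 5 without replicate 1, 5 without replicate 2 and 7 without replicate 3. Over all probes, calls in these settings numbered 436, 782 and 1314, against 1572 with all arrays.

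GSTL3, of the lambda class, had log ratios of -4.72, -4.16 and -3.94, with a mean of -4.27 (SE 0.34, adjusted p = 2.19e-10). LOC548029 (GSTU59), of the tau class that is known for herbicide conjugation, had -3.73, -2.41 and -3.67 and a mean of -3.27 (SE 0.43, adjusted p = 2.15e-06). GSTU30, also of the tau class, had -3.74, -2.72 and -3.26 and a mean of -3.24 (SE 0.41, adjusted p = 1.16e-06). These genes lay beyond -2.4 on all arrays, with replicate 2 closer to 0 than replicates 1 and 3 for both tau genes. GSTF5, of the phi class, had -2.26, -2.12 and -1.80 at its larger probe (mean -2.06, SE 0.22, adjusted p = 5.88e-08), and its second called probe had a mean of -1.65 (adjusted p = 4.56e-05).

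Not all members of this family took part. GSTU13 (mean -1.32, adjusted p = 0.0117) and the single positive call, DHAR3 (dehydroascorbate reductase, which regenerates ascorbate; mean 0.93, adjusted p = 0.012), are named after their values were seen. DHAR3 was not called without replicate 1 (adjusted p = 0.199) or 3 (0.221), and GSTU13 not without replicate 1 (0.125) or 2 (0.0529). The largest uncalled member, LOC547581 (GSTU21), had -1.16, -0.95 and -0.66 with an adjusted p of 0.386, but was called from the direct arrays alone (0.0194). Other probes of the called genes did not always follow: the second GSTL3 probe had a mean of -0.0099, and the 2 further GSTU30 probes had -0.67 and -0.083, none of them called.

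For the other conjugation and oxidation steps, no oxidation gene was called and glycosyltransferases were called on both sides. None of 23 tested cytochrome P450 probes, from a list of 8 genes, was called (0% against 8.69% of all probes). Their median was 0.068, with means between -0.65 and 0.68. At an extreme of that range, IFS2 (isoflavone synthase) had 0.18, 1.26 and 0.58 with an adjusted p of 0.43. Among 8 glycosyltransferase probes, which represent 3 genes, 1 was called on each side (25% against 8.69% of all probes). UGT1 had -1.50, -0.46 and -1.08 (mean -1.01, SE 0.25, adjusted p = 0.00738), and LOC732565 (SGT3), had 0.98, 0.63 and 1.02 (mean 0.88, SE 0.26, adjusted p = 0.0248). UGT1 was not called without replicate 1 (adjusted p = 0.248), nor LOC732565 (SGT3) without replicate 1 (0.257) or 3 (0.13) or in the loop model with a dye term (0.0929, value 0.65). IF7GT, an isoflavone glucosyltransferase, was not called (mean 0.44, adjusted p = 0.25).

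**Figure D2:**
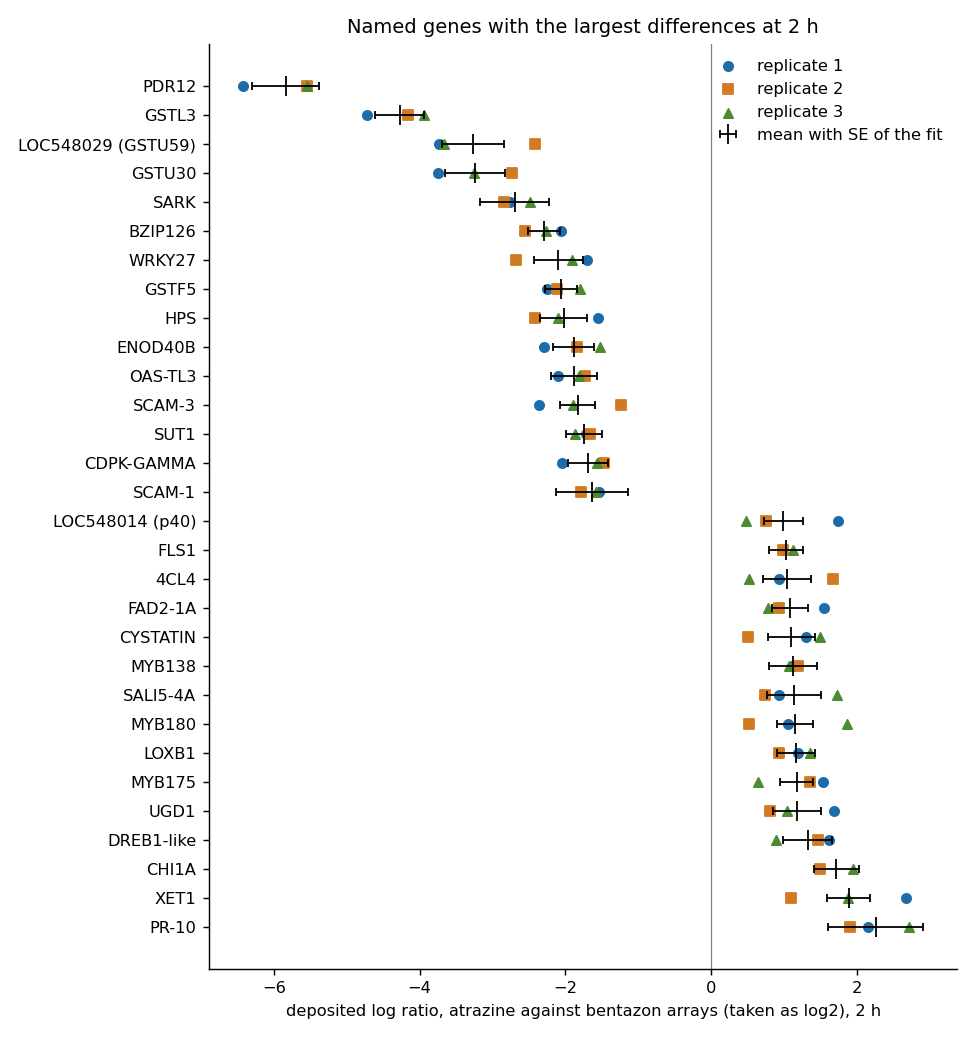
Deposited log ratio at 2 h (x axis, taken as log2) for the 15 named genes with the largest called differences on each side (y axis). Symbols are the 3 replicate arrays and the bar is the mean with the SE of the fit. The genes were chosen for one sign over their measured arrays. The spread between arrays is wide relative to the mean for positive genes such as MYB180, at 0.52 to 1.87.

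Several kinase and calcium-sensor genes were among the 15 largest named genes on the negative side. SARK, a receptor-like kinase known from leaf senescence in bean and soybean, had -2.76, -2.84 and -2.48 (mean -2.69, SE 0.47, adjusted p = 0.000185). The 2 other SARK probes had means of -0.056 and 0.62 and were not called. CDPK-GAMMA, a calcium-dependent protein kinase, had -2.05, -1.46 and -1.56 (mean -1.69, SE 0.28, adjusted p = 7.66e-05). The arrays of each gene lay close together and well away from 0. Both are in a list of 22 tested kinase probes of which they were the only calls (9.09%, against 8.69% of all probes). LOC547791 (PK), the largest uncalled kinase, had a mean of -0.96 (adjusted p = 0.0618) and was called without replicate 3 (0.0432).

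The calmodulins SCAM-3 and SCAM-1, calcium sensors that relay calcium signals to target proteins, were also on the negative side. SCAM-3 had -2.36, -1.24 and -1.89 (mean -1.83, SE 0.24, adjusted p = 2.9e-06). SCAM-1 had -1.54, -1.79 and -1.58 (mean -1.64, SE 0.50, adjusted p = 0.0328). Other probes of SCAM-3 (means of -0.22 and 0.080) and SCAM-1 (-0.10) were not called. The 3 values of SCAM-1 lay closer together than those of SCAM-3, yet its SE, which draws on the spread of that probe over all 36 arrays, was larger. SCAM-1 was the only one of the 15 negative genes to lose its call in an alternative: without replicate 1 (adjusted p = 0.245), without replicate 2 (0.0935) and with a robust prior (0.0616).

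Transcription factors were called more often than probes overall and on both sides. Of 72 tested probes, 6 were negative, 9 positive and 57 not called (20.8% against 8.69%), and the median was 0.067. Counts without replicates 1, 2 and 3 were 3, 2 and 5 negative and 1, 4 and 8 positive. In the same settings the calls over all probes fell from 1572 to 436, 782 and 1314. BZIP126, a basic leucine zipper factor, had -2.05, -2.55 and -2.27 (mean -2.29, SE 0.22, adjusted p = 8.16e-09). Its other probe was called on the opposite side (mean 0.59, adjusted p = 0.0125), though not without replicate 1 (0.151) or 2 (0.221), so the probes of this name disagree. WRKY27, of a family tied to stress and defence, had -1.70, -2.68 and -1.90 (mean -2.09, SE 0.33, adjusted p = 4.64e-05). NAC2, of a family tied to senescence and stress, had -1.12, -2.05 and -0.90 (mean -1.36, SE 0.29, adjusted p = 0.00214) and was not called without replicate 2 (0.138). The other probes of WRKY27 (mean -0.037) and NAC2 (-0.15) were not called.

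Besides the second BZIP126 probe, the factors named here on the positive side belong to the MYB and DREB families. MYB175 had 1.54, 1.36 and 0.64 (mean 1.18, SE 0.23, adjusted p = 0.000665), and a second MYB175 probe was called at 1.02. MYB180 had 1.06, 0.52 and 1.87 (mean 1.15, adjusted p = 0.00213), and MYB138 had 1.11, 1.20 and 1.07 (mean 1.13, adjusted p = 0.0286). DREB1-like, of a family that binds drought- and cold-response promoters, had 1.62, 1.47 and 0.89 (mean 1.33, SE 0.34, adjusted p = 0.00946). Of these, MYB138 was the most even over the arrays and MYB180 the least. The 3 other DREB1-like probes, with means from -0.031 to 0.48, were not called. The calls were lost for MYB175 without replicate 1 (adjusted p = 0.107), for MYB180 without replicate 3 (0.0823), for MYB138 without replicate 1 (0.19) or 3 (0.13), and for DREB1-like without replicate 1 (0.172) or 2 (0.0595). DREB3 had a mean of 1.05 but was not called (adjusted p = 0.0777), except without replicate 3 (0.0372) and in some other settings.

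Negative genes of primary metabolism and transport included OAS-TL3, a cysteine synthase, with -2.10, -1.73 and -1.81 (mean -1.88, SE 0.31, adjusted p = 8.97e-05). Cysteine is a building block of glutathione. SUT1, a sucrose transporter that loads sucrose for export, had -1.71, -1.65 and -1.87 (mean -1.74, SE 0.25, adjusted p = 8.45e-06). Both genes had nearly equal values on the 3 arrays. The 2 other OAS-TL3 probes, with means of -0.23 and -0.20, were not called. MIPS, which makes inositol phosphate from glucose phosphate, had -0.872, -1.353 and -1.002 (mean -1.08, adjusted p = 0.0469), and lost its call without replicate 1 (0.253), 2 (0.0601) or 3 (0.112), in the loop model (0.0576), with scaling (0.0526) and with a robust prior (0.0529). CGS2 (cystathionine gamma-synthase, a step to methionine) lay on the other side, with 0.93, 0.46 and 0.87 (mean 0.75, adjusted p = 0.0348), and lost its call without replicate 1 (0.377), 2 (0.0615) or 3 (0.0738).

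In these lists, 1 of 14 sulfur and methionine probes was called on each side, and 2 of 14 carbohydrate probes were called, both negative. The share was 14.3% in each list, against 8.69% of all probes and 11.3% of named probes. LOC547631 (OAS-TL1), another cysteine synthase, was not called (mean 0.59, adjusted p = 0.0808; 0.0331 without replicate 3), nor was BMY2, a beta-amylase (mean 0.95, adjusted p = 0.181).

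The nodulin gene ENOD40B, a short RNA known from root nodule development, had -2.29, -1.84 and -1.52 (mean -1.89, SE 0.28, adjusted p = 1.4e-05). HPS, a hydrophobic protein gene, had -1.55, -2.41 and -2.10 (mean -2.02, SE 0.32, adjusted p = 4.94e-05). Neither gene came within 1.5 of 0 on any array. The second ENOD40B probe, with a mean of 0.12, was not called. ENOD40B was the only call among 6 nodulin probes (16.7% against 8.69% of all probes), and the largest uncalled one, NOD33, had a mean of -0.55 (adjusted p = 0.327).

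Cell wall genes were called on the positive side. Of 14 cell wall probes, 5 were called positive, 0 negative and 9 not called (35.7% against 8.69% of all probes), with a median of 0.25. The positive count was 1, 4 and 3 without replicates 1, 2 and 3, with 1 negative call in the last case. Calls over all probes fell from 1572 to 436, 782 and 1314 in these settings. XET1, a xyloglucan endotransglycosylase that cuts and rejoins wall polymers, had 2.68, 1.11 and 1.89 (mean 1.89, SE 0.30, adjusted p = 4.47e-05), and its second probe was called as well (mean 1.50, adjusted p = 0.00138, but 0.16 without replicate 1). UGD1, which makes the UDP-glucuronate used for wall polymers, had 1.69, 0.82 and 1.04 (mean 1.18, SE 0.33, adjusted p = 0.0177). The 2 other UGD1 probes had means of -0.66 and 0.18 and were not called. CEL12, a cellulase-type gene, had 1.17, 0.80 and 0.96 (mean 0.98, SE 0.21, adjusted p = 0.00257). Replicate 1 gave the highest of the 3 values for all of these genes, and UGD1 (adjusted p = 0.223) and CEL12 (0.169) were not called without it; UGD1 was also not called without replicate 3 (0.0675). XTH1, of the same enzyme family as XET1, was not called (mean -0.36, adjusted p = 0.397).

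Phenylpropanoid and flavonoid genes were called on the positive side only, at a share near that of all probes: 8 of 81 tested probes were called (9.88% against 8.69%), all positive, and the median was 0.26. The count was 3, 3 and 8 positive without replicates 1, 2 and 3, with 1 negative call in the last case. All probes together gave 436, 782 and 1314 calls in these settings, against 1572 with all arrays. The 8 probes represent 3 genes. CHI1A, a chalcone isomerase of flavonoid synthesis, was measured on 2 arrays, at 1.49 and 1.96 (mean 1.72, SE 0.31, adjusted p = 0.000351), and 3 of its 10 probes were called. FLS1, a flavonol synthase, had 0.98, 1.00 and 1.12 (mean 1.03, SE 0.23, adjusted p = 0.00302), with 3 of 5 probes called. 4CL4 (4-coumarate:CoA ligase, which feeds the pathway) had 0.93, 1.68 and 0.52 (mean 1.05, SE 0.34, adjusted p = 0.0456). Without replicate 1, neither FLS1 (adjusted p = 0.0569) nor 4CL4 (0.277) was called, and 4CL4 also missed without replicate 2 (0.251) and with centred arrays (0.0572). HIDH, an isoflavonoid enzyme, lay on the other side without being called (mean -0.82, adjusted p = 0.118; 0.0305 without replicate 3).

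Of 46 jasmonate and ethylene probes, 4 were positive, 1 negative and 41 not called (10.9%, near the 8.69% of all probes). LOXB1, a lipoxygenase, had 1.19, 0.94 and 1.37 (mean 1.17, SE 0.26, adjusted p = 0.00324), whereas 6 of its 7 other probes had the opposite sign, none called. COI1, the jasmonate receptor component, had 0.71, 1.66 and 0.54 (mean 0.97, adjusted p = 0.00445) and a second called probe at 0.76. LOX1.1, another lipoxygenase, had a mean of 0.54 (adjusted p = 0.0277), and EREB, an ethylene-response factor, had -1.65, -1.37 and -0.62 (mean -1.21, adjusted p = 0.00178). These calls were sensitive to leaving out a replicate. Without replicate 1, adjusted p was 0.0662 for LOXB1, 0.0538 for COI1, 0.278 for LOX1.1 and 0.117 for EREB, and without replicate 2 it was 0.227, 0.224 and 0.0569 for COI1, LOX1.1 and EREB. LOX1.1 also missed without replicate 3 (0.0726) and from the direct arrays alone (0.138). Its fitted dye term, the part of a ratio shared by all arrays of the loop, was 0.22 (adjusted p = 0.0132), and with that term its value was 0.32 and not called (0.206).

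In the defence list, 1 of 15 probes was called on each side (13.3% against 8.69% of all probes and 11.3% of named probes), and the median was -0.14. PR-10, a pathogenesis-related protein, had the largest positive mean of a named gene, with 2.15, 1.91 and 2.73 (mean 2.26, SE 0.65, adjusted p = 0.0237). Its call was lost without replicate 1 (0.163), without replicate 3 (0.123) and with a robust prior (0.0557). BBI, the Bowman-Birk protease inhibitor, had -1.306, -1.301 and -0.998 (mean -1.20, adjusted p = 0.0262), lost without replicate 1 (0.22) or 2 (0.201). MMP2, a matrix metalloprotease, had 2.18, 1.72 and 1.66 (mean 1.85) and narrowly missed (adjusted p = 0.0567), but was called in several alternatives, with an adjusted p of 0.000572 from the direct arrays alone.

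Among the rest of the 15 positive genes, CYSTATIN, a cysteine protease inhibitor, had 1.30, 0.52 and 1.50 (mean 1.11, adjusted p = 0.0233). FAD2-1A, an omega-6 fatty acid desaturase, had 1.55, 0.93 and 0.78 (mean 1.09, adjusted p = 0.00345). Its fitted dye term was 0.32 (adjusted p = 0.0197), and it was still called with that term in the model. The other FAD2-1A probe, with a mean of -0.33, was not called. SALI5-4A had 0.94, 0.75 and 1.73 (mean 1.14, adjusted p = 0.0473) and LOC548014 (p40) had 1.74, 0.76 and 0.48 (mean 0.99, adjusted p = 0.0165). All 4 genes were lost without replicate 1, at adjusted p of 0.223, 0.223, 0.202 and 0.407. CYSTATIN was lost without replicate 2 (0.0591) or 3 (0.0679), LOC548014 (p40) without replicate 2 (0.0767), and SALI5-4A without replicate 3 (0.278). SALI5-4A was also lost with the replicate number as a block (0.0587), with the dye term (0.069), with centred arrays (0.0596) and with a robust prior (0.0582). Over all 15 positive genes, 13 lost their call when some single replicate was left out, against 1 of 15 on the negative side. The sets also differ in size, with means from 0.99 to 2.26 on the positive side and from -5.84 to -1.64 on the negative side. The sides were thus not compared at equal size. XET1 kept its call in every alternative, and CHI1A in all that could be run.

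Genes of the photosynthetic light reactions were not called at 2 h. All 10 tested probes, from a list of 3 genes, were uncalled (0% against 8.69% of all probes). Their means lay between -0.07 and 0.52, with a median of 0.28. For a list this small, an absence of calls is near the share of all probes. LOC547819 (LHCP), a chlorophyll-binding protein, had 0.23, 0.84 and 0.48 with an adjusted p of 0.111. Of 24 antioxidant probes, 3 were called, all positive (12.5%, against 8.69% of all probes and 3.64% positive, and 11.3% of named probes), with a median of 0.0087. PRX2B had 0.75, 1.24 and 0.99 (mean 0.99, adjusted p = 0.00707) and a second called probe at 0.92. CAT1, a catalase, had 0.89, 0.39 and 1.02 (mean 0.77, adjusted p = 0.0267). Without replicate 1, adjusted p was 0.0935 for PRX2B and 0.27 for CAT1; PRX2B also missed without replicate 2 (0.0577) and CAT1 without replicate 3 (0.161) and from the direct arrays alone (0.0512). PRX2 was just outside the threshold (mean 0.89, adjusted p = 0.0521) and inside it without replicate 3 (0.0322).

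The smaller lists gave single calls. Shares are again to be read against the 8.69% of all probes and the 11.3% of named probes. Of 8 chaperone probes, 1 was called (12.5%): PM37 with -0.97, -1.11 and -0.80 (mean -0.96, adjusted p = 0.0282), lost without replicate 1 (0.24) or 2 (0.121). In the list for senescence and proteolysis, SARK and CP3 were called, 1 on each side, among 14 probes (14.3%). CP3, a cysteine protease, had a mean of 0.69 (adjusted p = 0.0174), lost without replicate 1 (0.172), 2 (0.0778) or 3 (0.0971) and from the direct arrays alone (0.0557). VPE2, a vacuolar processing protease, had 0.45, 2.66 and -1.72 and thus opposite signs on its arrays (adjusted p = 0.828; 0.0263 without replicate 3). No histone probe of 5 was called, with a median of 0.50, though the largest (H4, mean 0.85, adjusted p = 0.263) was called from the direct arrays alone (0.0372).

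**Figure D3:**
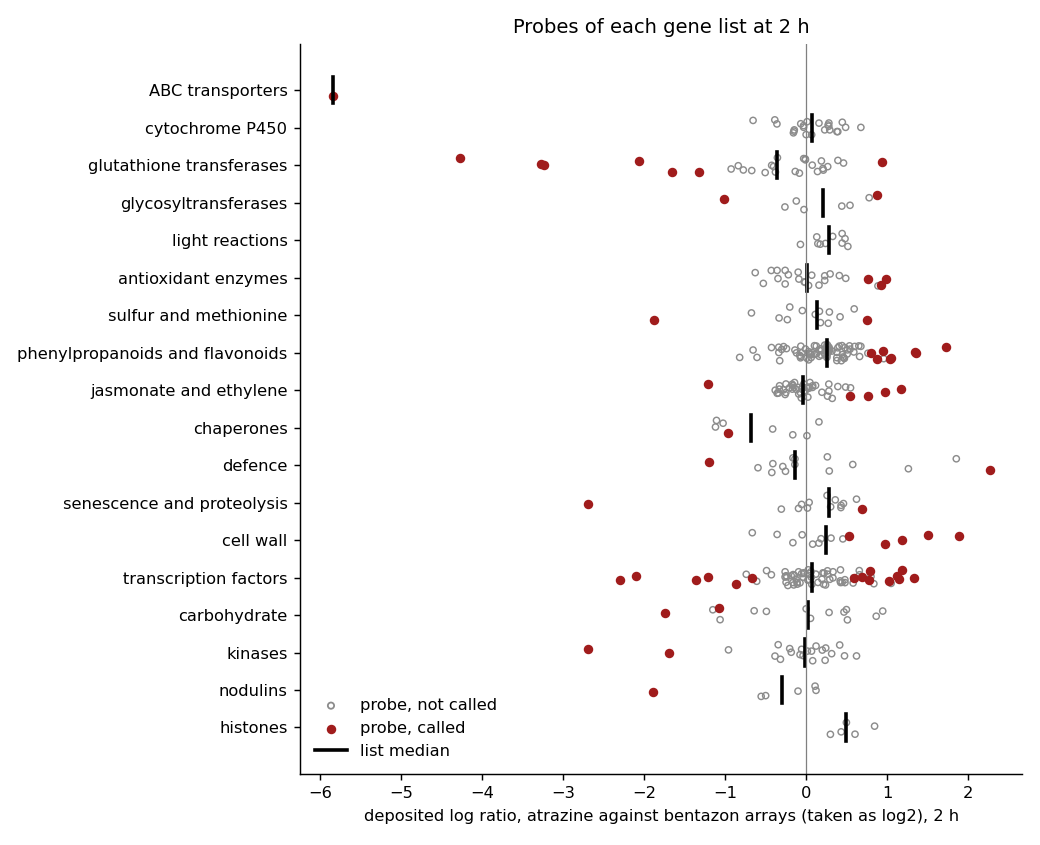
Mean deposited log ratio at 2 h (x axis, taken as log2) for every tested probe of 18 gene lists (y axis). Filled points are called and black bars are list medians. Calls reach -5.84 for the ABC transporter and -4.27 among glutathione transferases, and called phenylpropanoid, antioxidant and cell wall probes all lie on the positive side.

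The 2 h water-sprayed leaves allow each herbicide to be set beside water for these genes. Atrazine and water RNA met on 3 direct arrays. The difference between bentazon and water is the sum of the atrazine-water and the atrazine-bentazon values. The genes were chosen for a large atrazine-bentazon value, which returns in this sum, so the sum is no separate support. The fit treats both parts of the sum as independent, which gives it a larger SE, although both include the 2 h atrazine RNA. Passing or missing the threshold against water is thus judged at unequal SEs. A pairing of these arrays by replicate was not fitted. These comparisons share RNA with the one described here and are given side by side only, with the sign again as deposited. Over all probes, 935 (5.21%) were called between atrazine and water and 1237 (6.96%) between bentazon and water.

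For PDR12 and the leading glutathione transferases, bentazon and water differed past the threshold whereas atrazine and water did not. PDR12 had -0.61, 0.54 and -0.12 on the atrazine-water arrays (mean -0.059, adjusted p = 0.966) and a bentazon-water difference of -5.90 (SE 0.64, adjusted p = 2.53e-07). GSTL3 had -0.26 (adjusted p = 0.759) for atrazine and -4.54 (1.89e-07) for bentazon. GSTU30 had -0.58 (0.492) and -3.82 (4.3e-05), and LOC548029 (GSTU59) had -0.70 (0.403) and -3.97 (4.48e-05). BZIP126 differed from water under both herbicides, at -0.78 (adjusted p = 0.0333) for atrazine and -3.07 (1.89e-07) for bentazon. SARK had -1.44 (0.0712) and -4.14 (9.58e-05).

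For XET1, UGD1 and MIPS, by contrast, atrazine and water differed past the threshold and bentazon and water did not. XET1 had -1.87, -1.78 and -3.04 on the atrazine-water arrays (mean -2.23, SE 0.30, adjusted p = 2.81e-05) and a bentazon-water difference of -0.34 (SE 0.42, adjusted p = 0.714). UGD1 had -1.24 (adjusted p = 0.0205) for atrazine and -0.054 (0.968) for bentazon. MIPS lay at 1.95 (0.000638) for atrazine and 0.87 (0.331) for bentazon. CGS2 differed from water on the same side under both, at 1.04 (0.00551) and 1.79 (0.000453). OAS-TL3 passed the threshold against water under neither herbicide, at 0.81 (0.139) for atrazine and -1.07 (0.157) for bentazon. Among the 15 positive genes, some passed the threshold under bentazon only. These were CHI1A at 1.73 (limma adjusted p = 0.00677), MYB180 at 1.11 (0.0471) and FAD2-1A at 1.33 (0.0151). FLS1 at 1.23 (0.0166) and LOC548014 (p40) at 1.49 (0.014) did so too. The rest of the 15, apart from XET1 and UGD1, passed the threshold under neither herbicide.

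**Figure D4:**
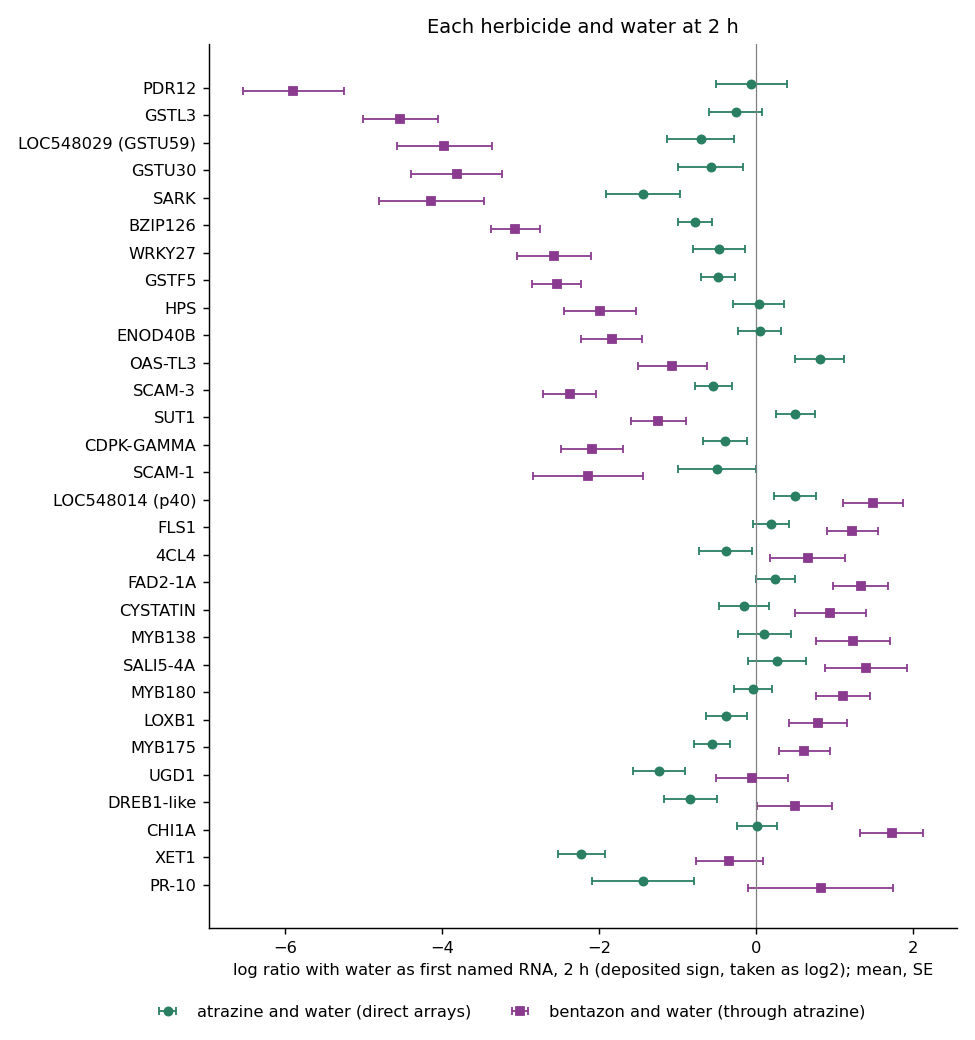
Log ratio at 2 h with water as the first named RNA (x axis, deposited sign, taken as log2) for the 15 genes per side (y axis). Circles are atrazine and water from direct arrays, squares are bentazon and water through atrazine, and bars are SEs. PDR12 lies at -0.059 for atrazine and -5.90 for bentazon, and XET1 at -2.23 and -0.34.

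The same pair of herbicides was compared directly at 1, 4 and 8 h, with no RNA in common with the 2 h arrays. The dyes were the other way round at 4 and 8 h, and those values were turned to match. The number called was 1054 at 1 h (5.79%; 3.13% negative, 2.66% positive), 1794 at 4 h (9.81%; 5.16% and 4.65%) and 944 at 8 h (5.14%; 2.42% and 2.72%). The 2 h pattern was most like that at 4 h. Of the probes called at 2 h, 670 were called at 4 h (42.6% of the 2 h calls and 37.4% of the 4 h calls), 669 of them on the same side. With 1 h the shared calls were 380 (24.2% and 36.1%), 337 on the same side, and with 8 h 156 (9.94% and 16.6%), 117 on the same side. Across all probes, which share no RNA but do share probe sequences, the correlation with the 2 h means was 0.247 at 1 h, 0.654 at 4 h and 0.0633 at 8 h.

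The large negative differences were present at 1 h, held at 4 h and were smaller at 8 h. The 132 called probes at -2 or beyond, with a median of -2.72 at 2 h, had medians of -1.61, -2.27 and -0.41 at 1, 4 and 8 h. On the same side, 99, 118 and 28 of them were called at these times. Since these probes were chosen by their 2 h size, smaller values at other times are to be read with that in mind. The 222 called probes at 1 or higher had medians of 0.055, 0.79 and 0.063, with 21, 94 and 39 called on the same side. At 8 h the asymmetry between sides ran the other way, with 19 called probes at -2 or beyond and 56 at 2 or beyond, against 132 and 5 at 2 h.

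The tests of the difference between times were uneven in how firmly they held. Between 2 and 8 h, 1371 probes differed (7.62%), with 252, 852 and 551 without replicates 1, 2 and 3 and 797 from the direct arrays alone. Between 2 and 1 h, 672 differed (3.74%), but 66, 0 and 1181 without replicates 1, 2 and 3 (limma, 1277 at an unadjusted p under 0.05 where the count was 0) and 1 from the direct arrays alone. Between 2 and 4 h, 1 probe differed (0.00556%), the unnamed Gm17603cDNA18kA at -1.65 (adjusted p = 0.00849), while 1821 had an unadjusted p under 0.05. Leaving out any 1 replicate left no call in this difference. A dye effect would cancel in the difference from 1 h and add in those from 4 and 8 h.

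PDR12 had -3.97 at 1 h (adjusted p = 6.67e-07), -4.62 at 4 h (1.4e-08) and -0.69 at 8 h (0.451). GSTL3, by contrast, was called at every time, at -2.97, -3.98 and -2.77. Glutathione transferase probes were called negative 5, 7 and 4 times at 1, 4 and 8 h, against 6 at 2 h, and positive 0, 0 and 1 times. GSTU30 had -1.23 at 1 h (adjusted p = 0.0727), -3.84 at 4 h and -1.74 at 8 h. SCAM-1 was called on opposite sides at 1 h (1.69, adjusted p = 0.0367) and 2 h (-1.64). XET1 stayed positive and called, at 1.54, 1.43 and 1.14. 4CL4 changed side, with -1.30 at 1 h (adjusted p = 0.0155), 0.70 at 4 h (0.2) and -1.09 at 8 h (0.0503).

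The lists without a call at 2 h were light reactions, histones and cytochrome P450, and they were not alike at the other times. Cytochrome P450 stayed nearly without calls, with 0 of 22 at 1 h, 1 of 22 (negative) at 4 h and 0 of 23 at 8 h. The share among all tested probes was 5.79%, 9.81% and 5.14% in turn. Of 10 light reaction probes, 0 were called at 1 and 4 h and 5 at 8 h, all negative, with a median of -0.95 at 8 h. Of 5 histone probes, which all measure the single gene H4, 0 were called at 1 h and 4 at each of 4 and 8 h, all positive, with medians of 1.75 and 2.39. In the probe-by-probe tests of 2 against 8 h, 5 of the 10 light reaction probes, 1 of the 5 histone probes and 9 of the 29 glutathione transferase probes (8 of them further to the negative side at 2 h) were called, against 7.62% of all probes. No probe of these lists was called between 2 and 4 h, where the whole table gave 1 call.

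**Figure D5:**
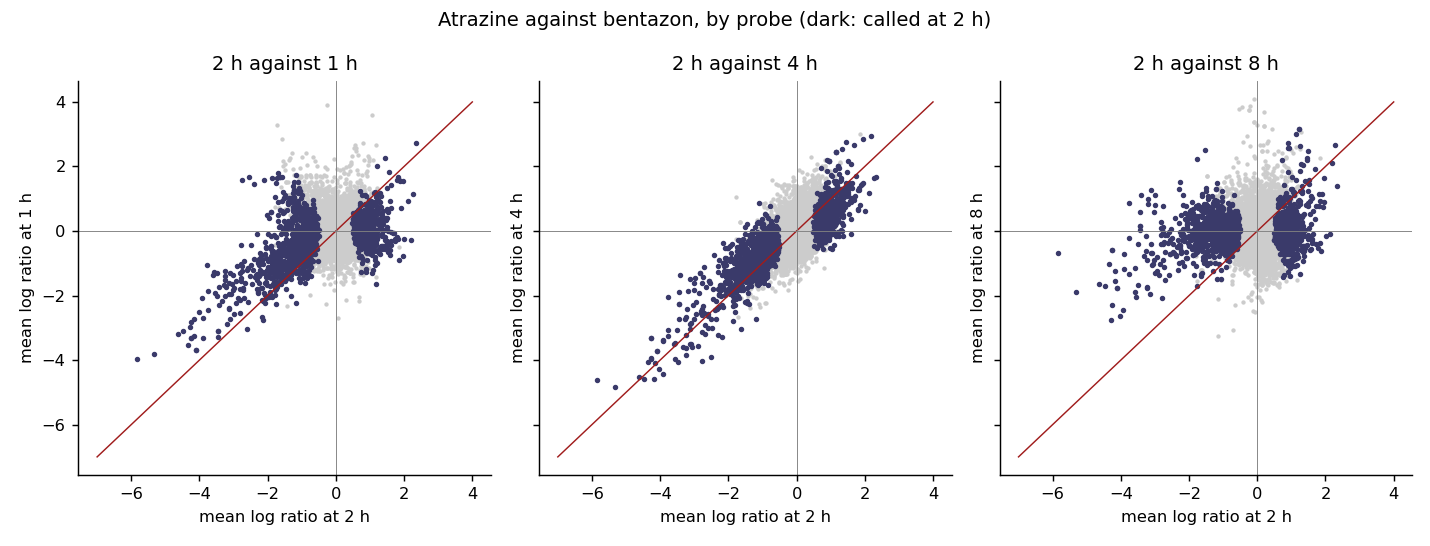
Mean log ratio of atrazine against bentazon at 2 h (x axes) against that at 1, 4 and 8 h (y axes), by probe, taken as log2 and turned to the same orientation. Dark points were called at 2 h and the line marks equal values. Over all probes the 4 h panel follows the line most closely (r = 0.654, against 0.0633 at 8 h), and over the probes called at 2 h r was 0.885 at 4 h and 0.249 at 8 h.

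The named probes whose means over the 12 hybridisation types were most like those of PDR12 were LOC548029 (GSTU59), with a Pearson correlation of 0.965, BZIP126 (0.964), GSTF5 (0.935), GSTL3 (0.928) and ENOD40B (0.927). The 12 types share RNA around the loop. The most extreme unnamed probes were of similar size to the named ones. On the negative side, Gm02128cDNA18kA had -5.35, -5.01 and -5.60, and Gm02814cDNA18kA had -5.47, -4.25 and -4.17. On the positive side, Gm12877cDNA18kA had 3.50, 1.54 and 1.98, and Gm06304cDNA18kA had 3.41, 1.66 and 1.50. Replicate 1 was the highest value of both positive probes.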

How the data were processed

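Per the labels' protocols, Trizol-extracted RNA was labelled by the indirect aminoallyl-dUTP method. The authors deposited a log ratio for each probe and array, read here as log2. The sources used here give neither log base and numerator nor background correction and normalization. With natural logs, sizes would change by a constant and no test would. Repeats are called biological, but separate cultures are not described, so p-values measure the spread between these samples. Technical dye swaps are mentioned in the labels, yet every replicate holds a comparison in 1 orientation.

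Means of the 12 hybridisation types were fitted over all 36 arrays with limma 3.58.1 in R 4.3.3, with moderated variances (24 residual, 7.78 prior degrees of freedom) and Benjamini-Hochberg adjustment over all tested probes. Probes needed 2 values. The code was tested on simulated data. Of 527 annotated genes, 523 matched the Glycine_max_v4.0 gene table. Among the array's probes, 1656 in 810 sets had rows identical to another probe.

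Members and gene lists were chosen with earlier results of these data known. Named genes are the 15 largest called per side with 1 sign on all arrays, up to 4 called and the largest uncalled gene per list, 2 unnamed probes per side and 5 probes most like the largest. Figures used matplotlib 3.10.9 in Python 3.11.15.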

Additional observations from a re-analysis of the deposited data

Results flagged for a closer look

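Named genes are given here where the difference between atrazine and bentazon at 2 h was itself different from that at 1 or 8 h, by limma's test of the difference adjusted over all probes. The values are 2 h minus the other time.

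Against 8 h, PDR12 and some glutathione transferase genes lay further to the negative side at 2 h. The differences were -5.15 (limma adjusted p = 7.58e-06) for PDR12, -2.65 (0.00585) for LOC548029 (GSTU59), -1.50 (0.049) for GSTL3 and -1.21 (0.0138) for GSTF5. The regulators WRKY27, BZIP126 and NAC2 had -2.88, -2.54 and -1.42. The calcium and transport genes CDPK-GAMMA, SCAM-3 and SUT1 had -2.16, -2.09 and -1.20. HPS, ENOD40B and BBI had -2.05, -1.92 and -2.50, and BBI lay on the opposite side at 8 h (1.30) from 2 h.

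Further to the positive side at 2 h than at 8 h were 4CL4 (2.14), CHI1A (2.12), PRX2B (1.89), CGS2 (1.66), CYSTATIN (1.56), FAD2-1A (1.37), FLS1 (1.05) and CEL12 (1.05). The dyes were reversed between 2 and 8 h, so a dye effect would add to these differences.

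Against 1 h, where a dye effect would cancel, SCAM-1 had -3.32 (adjusted p = 0.00769), HPS -2.50 (0.00343), GSTU30 -2.01 (0.0441) and SCAM-3 -1.22 (0.0372). On the positive side were 4CL4 (2.35), CHI1A (2.04), CGS2 (1.74), CYSTATIN (1.59), LOXB1 (1.47) and FAD2-1A (1.36). The number of probes that differed between 2 and 1 h was 0 without replicate 2, against 672 with all arrays (1277 at an unadjusted p under 0.05 in limma).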

How the results depend on the processing

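The 1572 calls at 2 h ranged from 436 to 1314 when 1 replicate was left out, and 798 had a size of at least 1. They were 1430 from the direct arrays alone, 1641 in a loop model with a dye term, 1619 with arrays scaled to one spread, 1535 with arrays centred, 2105 with array weights, 1536 with a robust prior and 1571 with values on all arrays. Keeping 1 probe of each set of identical rows, an alternative chosen after seeing the data, gave 1511. Deviations of 27 same-numbered pairs of arrays without shared RNA had a median correlation of -0.0803, 6 of them best with their own number. Types that share RNA with the 2 h arrays were left out. Effects common to both RNAs of an array cancel in a ratio, so a pairing of that kind could not be seen. With the replicate number as a block, 1496 were called.

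The difference from 1 h (672 probes) ranged from 0 to 1181 without 1 replicate and was 1 from the direct arrays. That from 4 h (1 probe) was 0 without any 1 of the replicates and 0 from the direct arrays (limma, 1332 at an unadjusted p under 0.05), 2 in the loop model and 71 with array weights. That from 8 h (1371) ranged from 252 to 852, and was 797 from the direct arrays and 2201 with array weights. Under the block these were 579, 1 and 1246. Centring the arrays moved the negative share at 2 h from 58.1% to 64.8%.

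No called named gene changed sign. As these genes were chosen for 1 sign on every measured array, most of the settings could not have shown such a change. Of 44, calls were lost for 26, 15 and 12 without replicates 1, 2 and 3, 3 from the direct arrays, 4 in the loop model, 1 with the block, 2 with centring, 1 with scaling, 4 with a robust prior and 0 with array weights. Of 17 uncalled named genes, calls were gained by 7 without replicate 3, 6 from the direct arrays, 6 with array weights, 3 with scaling, 2 in the loop model and 1 with a robust prior. Uncalled VPE2 ranged from -0.64 without replicate 2, a change of sign, to 1.55 without replicate 3. Apart from the smaller number of arrays, causes were not tested. Without intensities, signal over background is unknown, and precision is limited by the number of arrays.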
